A study of Rattus norvegicus with 325 samples.

Results

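The genes described are 9 antiviral interferon-stimulated genes, Isg15, Mx1, Mx2, Ifit2, Ifit3, Rsad2, Usp18, Irf7 and Oasl, taken by their symbols from the 17315 distinct gene symbols of the deposited count files. They were measured by bulk, strand-specific total RNA sequencing in 4 muscles of male, outbred Sprague Dawley rats, the diaphragm (the breathing muscle) and 3 hindlimb muscles (gastrocnemius, soleus and tibialis anterior), with no treatment or genetic change in any group. The youngest rats were 6 months old and served as the reference; the later ages were 9, 12 and 18 months and then 21, 24 and 27 months. The 28 groups of 1 muscle and 1 age held between 9 and 13 libraries. The rats were bought shortly after weaning, aged at the supplier and moved to the study site some weeks before the tissues were taken, and each age group was collected on a day of its own, so age and collection day cannot be told apart. The study counts each sample of a muscle as a separate animal, so p-values within a muscle measure the spread between rats. The labels do not say which animal gave which library, so libraries of different muscles cannot be matched by animal. Each level is an average over all cells of a muscle sample, in which fewer cells of a type and less RNA per cell cannot be told apart.

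Type I and type II interferons are secreted proteins that bind receptors on the cell surface and, through JAK kinases, switch on a large set of genes. Type I interferon acts mainly through the interferon-stimulated response element (ISRE) of the target promoters, while interferon gamma acts mainly through the GAS element. The 9 genes are standard reporters of the ISRE-driven response. Irf7 is a transcription factor that amplifies that response, and Mx1, Mx2, Rsad2, Ifit2 and Ifit3 encode proteins that act on viruses or their RNA. The product of Oasl resembles oligoadenylate synthetases. Isg15 is a ubiquitin-like modifier, and Usp18 removes that modifier and restrains the receptor.

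The RefSeq promoter table of the rat build GRCr8 held 5 of the 9 genes (Irf7, Ifit3, Rsad2, Mx1 and Oasl), each as 250 bases before and 50 bases after the start of the gene. The build differs from that of the count files, so the positions locate these windows only. The core of the ISRE, searched as GAAA, 2 bases of any kind and GAAA on both strands, stood in 3 of the 5 promoters, against 3.92% of all 33469 promoters of that table. The GAS element, searched as TTC, 3 bases of any kind and GAA, stood in 0 of the 5, against 8.87% of all promoters. The 3 matches lie on the opposite strand, so they read as TTTC at both ends, and they start 69 bases before the start of Irf7, 44 before that of Ifit3 and 147 before that of Rsad2. Mx1 and Oasl had no match. The 60 bases around each match are shown because they carry the element through which type I interferon mainly acts, and capitals mark the match.
Irf7, chr1:205800058-205800117, minus strand: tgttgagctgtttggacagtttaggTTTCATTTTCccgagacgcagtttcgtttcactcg
Ifit3, chr1:241527257-241527316, plus strand: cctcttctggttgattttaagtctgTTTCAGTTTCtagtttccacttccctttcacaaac
Rsad2, chr6:48788233-48788292, minus strand: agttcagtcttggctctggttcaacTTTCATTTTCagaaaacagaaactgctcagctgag

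The libraries held 17.6 M to 85.3 M counts each (median 31.9 M; M is mega). Each of the 9 genes stood on 1 line of every file and passed the low-count filter in all 4 muscles. Isg15 was the thinnest, with a median of 16 counts per library and at least 1 count in 323 libraries, all but 2. The other 8 were counted in every library, with medians from 56 (Oasl) to 682 (Ifit2) counts. Mx1 and Mx2, Ifit2 and Ifit3, and Oasl and its relative Oasl2 are close paralogs, and how the counting shared reads between them is not given in the sources used here, so their separate values are uncertain to that extent. Markers of muscle fibres were abundant in every muscle, with summed levels of at least 49732 CPM (counts per M counts of the TMM-scaled library) in each library of 6 and 27 months.

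At 27 months against 6 months, members of the family were called higher in the 3 hindlimb muscles and none was called higher in the diaphragm. A call needed a change over 1.5-fold and a Benjamini-Hochberg adjusted p under 0.05 in limma-voom, with the adjustment over all genes tested in that muscle. The gastrocnemius had 5 of 9 called higher (Isg15, Mx1, Ifit3, Rsad2 and Usp18), where 15.1% of all genes tested were called higher. The soleus had 4 called higher (Mx1, Rsad2, Irf7 and Oasl), against 9.21% of all genes. For the tibialis anterior, 4 were called higher (Mx1, Usp18, Irf7 and Oasl), against 17.2% of all genes, and Ifit2 was called lower, against 10.4%. Scaling by total counts gave 8 higher in the gastrocnemius and 7 higher and 0 lower in the tibialis anterior, while edgeR and DESeq2 each gave 2 higher for the soleus and 2 for the tibialis anterior. Leaving out 1 library at a time gave 1 to 5 higher in the soleus and 2 to 5 in the tibialis anterior. The diaphragm had 0 called higher, against 3.27% of all genes, and 0 by edgeR or DESeq2. There Oasl alone had an unadjusted p under 0.05 and a change above 0; it passed the adjusted threshold too (0.53, adjusted p = 0.0378) and missed the 1.5-fold line, which it crossed in 4 of 24 fits that left out 1 library and with sample quality weights. Its only call was Ifit2, lower, where 4.25% of all genes were called lower. Mx1 was the only member called in all 3 hindlimb muscles at 27 months.

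The calls appeared from 18 months on. At 9 and 12 months limma-voom, edgeR and DESeq2 each called 0 members higher in every muscle. The shares of all genes called higher in limma-voom were 0.0748% (diaphragm), 0.101% (gastrocnemius), 0.0493% (soleus) and 0.00851% (tibialis anterior) at 9 months, and 0.307%, 0.489%, 0.23% and 0.145% in the same order at 12 months. At an unadjusted p under 0.05, 0 members passed at 9 months, and at 12 months 3 were higher in the gastrocnemius and 1 in the soleus. The 18-month calls were Oasl in the soleus (1.66% of all genes called higher) and Irf7 in the tibialis anterior (4.11%). At that age 0 members were called higher by any of these tools in the diaphragm (1.62% of all genes) and the gastrocnemius (3.63%), where 0 and 2 had an unadjusted p under 0.05. By 21 months there were 3 calls in the diaphragm (Mx1, Irf7 and Oasl, 1.12% of all genes), 3 in the gastrocnemius (Mx1, Usp18 and Irf7, 4.27%), 1 in the soleus (Ifit3, 1.41%) and 4 in the tibialis anterior (Mx1, Usp18, Irf7 and Oasl, 5.5%). At 24 months the soleus had 6 (Mx1, Mx2, Ifit3, Rsad2, Irf7 and Oasl, 3.87%), the gastrocnemius 3 (Mx1, Mx2 and Usp18, 11.4%), the tibialis anterior 3 (Mx1, Usp18 and Irf7, 10.9%) and the diaphragm 1 (Mx1, 2.19%). Without replicate 5 the soleus count at that age was 2, without replicate 0 that of the gastrocnemius was 6 and without replicate 11 that of the diaphragm was 3, each a library of 24 months. The gastrocnemius count was 5 by edgeR and by DESeq2 and 8 with scaling by total counts.

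**Figure D1:**
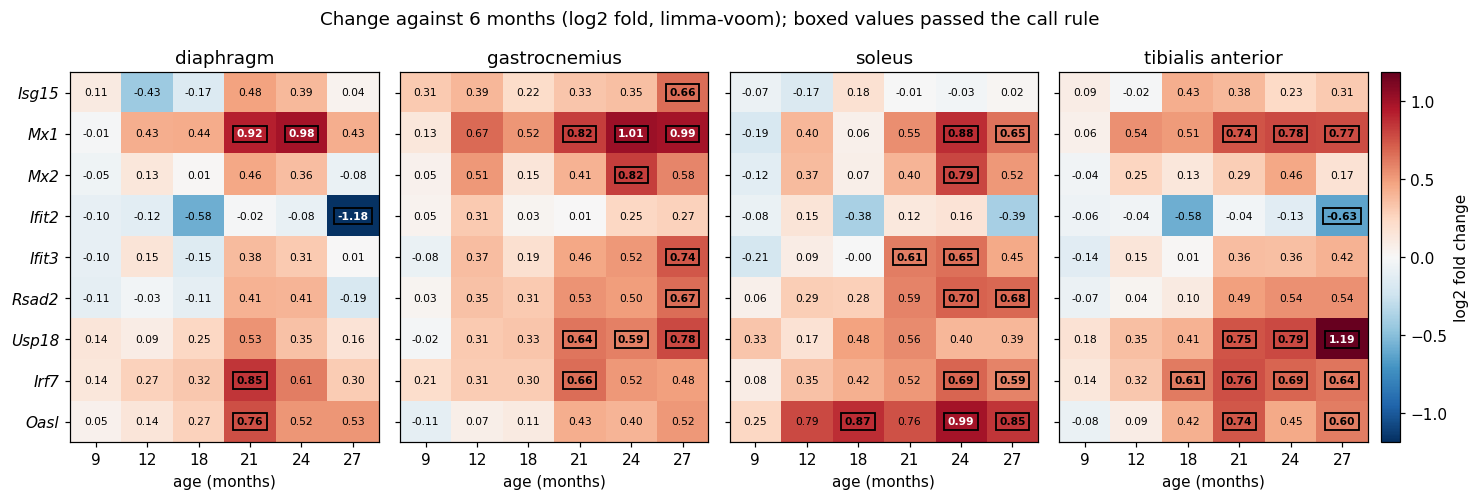
Log2 fold change of each gene (rows) against 6 months at each later age (columns, months), 1 panel per muscle, from limma-voom; the color scale gives the same value and boxed values passed the call rule. All boxed values but 2 stand at 21 months or later, and the only boxed blue cells are those of Ifit2 at 27 months in the diaphragm (-1.18) and the tibialis anterior (-0.63).

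The median change of the 9 genes at the last 3 ages is given beside that of all genes tested. In the diaphragm it was 0.48 on the log2 scale at 21 months, 0.39 at 24 and 0.04 at 27 months. The last of these medians is taken over genes that went both ways, from Ifit2 at -1.18 to Oasl at 0.53. The gastrocnemius median went from 0.46 at 21 months to 0.52 at 24 and 0.66 at 27 months. The soleus median was 0.55, 0.69 and 0.52 at those ages, and that of the tibialis anterior 0.49, 0.46 and 0.54. The median over all genes tested lay between -0.00437 and 0.0423 in these comparisons.

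At 27 months Irf7, the transcription factor of the set, was called higher in the soleus and the tibialis anterior and missed the call in the other muscles. The interaction test below called no difference between muscles in that change. Its level in the tibialis anterior was 2.82 to 11.1 CPM at 6 months (median 4.42) and 5.5 to 16.2 CPM at 27 months (median 7.89). All 12 libraries of 27 months lay above the 6-month median and 2 lay above the highest 6-month library. The change was 0.64 ± 0.22 (SE, log2; adjusted p = 0.00821). In the soleus, Irf7 went from 5.38 to 18.4 CPM (median 8.02) at 6 months to a narrow 10.8 to 15.3 CPM (median 12.4) at 27 months. All 12 old libraries again exceeded the 6-month median, none exceeded the highest 6-month library, and the change of 0.59 ± 0.19 (adjusted p = 0.00702) stood just over the 1.5-fold line. Leaving out 1 library at a time took this change under the line in 17 of 24 fits. The tibialis anterior call was lost in 2 of 24 fits, without replicate 2 of 27 months (0.55) or replicate 5 of 6 months (0.54). The gastrocnemius change was 0.48 ± 0.20 (adjusted p = 0.0298) and that of the diaphragm 0.30 ± 0.24 (adjusted p = 0.323). In the diaphragm Irf7 had its largest change at 21 months, 0.85 ± 0.24 (adjusted p = 0.0152), when all 12 libraries (15.7 to 44.8 CPM, median 19.8) lay above the 6-month median of 9.84 CPM. The gastrocnemius was called at 21 months too (0.66 ± 0.20, adjusted p = 0.0154).

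Mx1 encodes a dynamin-like GTPase that blocks the replication of RNA viruses. In the gastrocnemius it stood at 0.934 to 6.28 CPM at 6 months (median 2.21) and at 3.2 to 7.24 CPM at 27 months (median 4.37). All 11 old libraries lay above the 6-month median, although the ranges overlapped, and the change was 0.99 ± 0.23 (adjusted p = 0.000143). The tibialis anterior went from 0.947 to 7.39 CPM (median 2.25) to 1.99 to 6.68 CPM (median 4.01), a change of 0.77 ± 0.28 (adjusted p = 0.00996). For the soleus the ranges were 2.22 to 10.9 CPM (median 3.33) and 4.11 to 8.02 CPM (median 6.23). The 27-month soleus libraries were all inside the 6-month range and all above its median, with a change of 0.65 ± 0.27 (adjusted p = 0.0391) that lost its call in 13 of 24 fits that left out 1 library. In the diaphragm, Mx1 rose at 21 months by 0.92 ± 0.29 (adjusted p = 0.03) and at 24 months by 0.98 ± 0.28 (adjusted p = 0.012), and all 12 libraries of each of these ages lay above the 6-month median of 4.27 CPM. Its 27-month libraries ran from 2.79 to 13.7 CPM (median 6.59), with a change of 0.43 ± 0.29 (adjusted p = 0.218).

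Mx2, a second GTPase of the same family, was called higher only at 24 months. The gastrocnemius change was 0.82 ± 0.23 (adjusted p = 0.00175) and that of the soleus 0.79 ± 0.26 (adjusted p = 0.0136). The 24-month soleus libraries ran from 5.15 to 46.5 CPM with a median of 7.4 CPM, and replicate 5 was the highest. Without that library the soleus change was 0.60 (adjusted p = 0.0521). At 27 months the gastrocnemius change of 0.58 ± 0.22 (adjusted p = 0.0194) lay just under 1.5-fold, and 9 of 21 fits that left out 1 library moved it over. The tibialis anterior (0.17 ± 0.23) and the diaphragm (-0.08 ± 0.23) gave values smaller than their errors.

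Rsad2 encodes viperin, a radical SAM enzyme that makes a chain-terminating nucleotide. Its gastrocnemius levels were 1.36 to 2.4 CPM at 6 months (median 1.9) and 2.34 to 4.51 CPM at 27 months (median 2.8). Of the 11 old libraries, 10 lay above the highest young library, and the change was 0.67 ± 0.15 (adjusted p = 7.2e-05). The soleus went from 1.44 to 4.62 CPM (median 2.42) to 2.26 to 6.99 CPM (median 3.77), a change of 0.68 ± 0.23 (adjusted p = 0.00855). In the tibialis anterior 11 of 12 old libraries lay above the young median, and the change of 0.54 ± 0.16 (adjusted p = 0.0018) was under 1.5-fold. Diaphragm levels were 4.45 to 12.6 CPM (median 6.84) at 6 months, 6.25 to 14.4 CPM (median 8.9) at 24 months and 4.34 to 9.4 CPM (median 6.39) at 27 months. Between 24 and 27 months Rsad2 changed in the diaphragm by -0.59 ± 0.14 (adjusted p = 0.000427).

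Oasl encodes an oligoadenylate synthetase-like protein. It was called higher in the soleus at 18, 24 and 27 months. The soleus levels ran from 0.127 to 2.48 CPM (median 1.38) at 6 months and from 1.65 to 2.97 CPM (median 2.09) at 27 months. The lowest young value belonged to replicate 5, which stood far under the others of its group. The 27-month change was 0.85 ± 0.28 (adjusted p = 0.00663) and 0.57 (adjusted p = 0.0375) without that library, which is under 1.5-fold. The tibialis anterior went from 0.547 to 1.53 CPM (median 0.992) to 1.06 to 2.45 CPM (median 1.44), with all 12 old libraries above the young median. This change was 0.60 ± 0.19 (adjusted p = 0.00352), and 7 of 24 fits that left out 1 library brought it under 1.5-fold. The diaphragm (0.53 ± 0.21, adjusted p = 0.0378) and the gastrocnemius (0.52 ± 0.21, adjusted p = 0.0316) gave nearly the same size with no call.

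Ifit3 and Ifit2 encode tetratricopeptide-repeat proteins that bind viral RNA or support the signalling of RNA sensors, and they moved differently. Ifit3 in the gastrocnemius went from 1.18 to 2.8 CPM (median 1.57) to 1.6 to 3.63 CPM (median 2.77), with 11 of 11 old libraries above the young median. The change was 0.74 ± 0.20 (adjusted p = 0.00146). The soleus reached its calls at 21 months (0.61 ± 0.22, adjusted p = 0.0468) and 24 months (0.65 ± 0.22, adjusted p = 0.0163). At 27 months the soleus (0.45 ± 0.22) and the tibialis anterior (0.42 ± 0.16, adjusted p = 0.0151) were not called, and the diaphragm value was 0.01 ± 0.19.

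Ifit2 fell in the diaphragm at 27 months. Its diaphragm levels were 25.7 to 45.1 CPM (median 31.9) at 6 months and 9.31 to 22.6 CPM (median 13.2) at 27 months. All 12 old libraries lay under the lowest young one, so the ranges did not overlap, and the change was -1.18 ± 0.13 (0.443-fold, adjusted p = 7.94e-12). At 24 months the same muscle still held 24.6 to 43.7 CPM (median 29.8), and the step from 24 to 27 months alone was -1.09 ± 0.13 (adjusted p = 5.12e-10). The other diaphragm group with a low median was that of 18 months, at 6.77 to 28.5 CPM (median 24.5), with a change of -0.58 ± 0.12 (adjusted p = 0.000307) that missed 1.5-fold. In the tibialis anterior the levels went from 16 to 34.5 CPM (median 22.4) to 9.84 to 20.3 CPM (median 16), and 6 of 12 old libraries lay under the lowest young one. This change was -0.63 ± 0.11 (adjusted p = 1.03e-06). It missed the 1.5-fold line without replicate 3 of 27 months (-0.57) or replicate 0 of 6 months (-0.57), and it was no call when libraries were scaled by their total count. The tibialis anterior, too, had a low group at 18 months, with 11.1 to 22 CPM (median 13.7) and 0 of 12 libraries above the 6-month median, a change of -0.58 ± 0.11 (adjusted p = 3.06e-05) that again missed 1.5-fold. The soleus change was -0.39 ± 0.15 (adjusted p = 0.0201, under 1.5-fold) and the gastrocnemius change 0.27 ± 0.24 (adjusted p = 0.317).

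**Figure D2:**
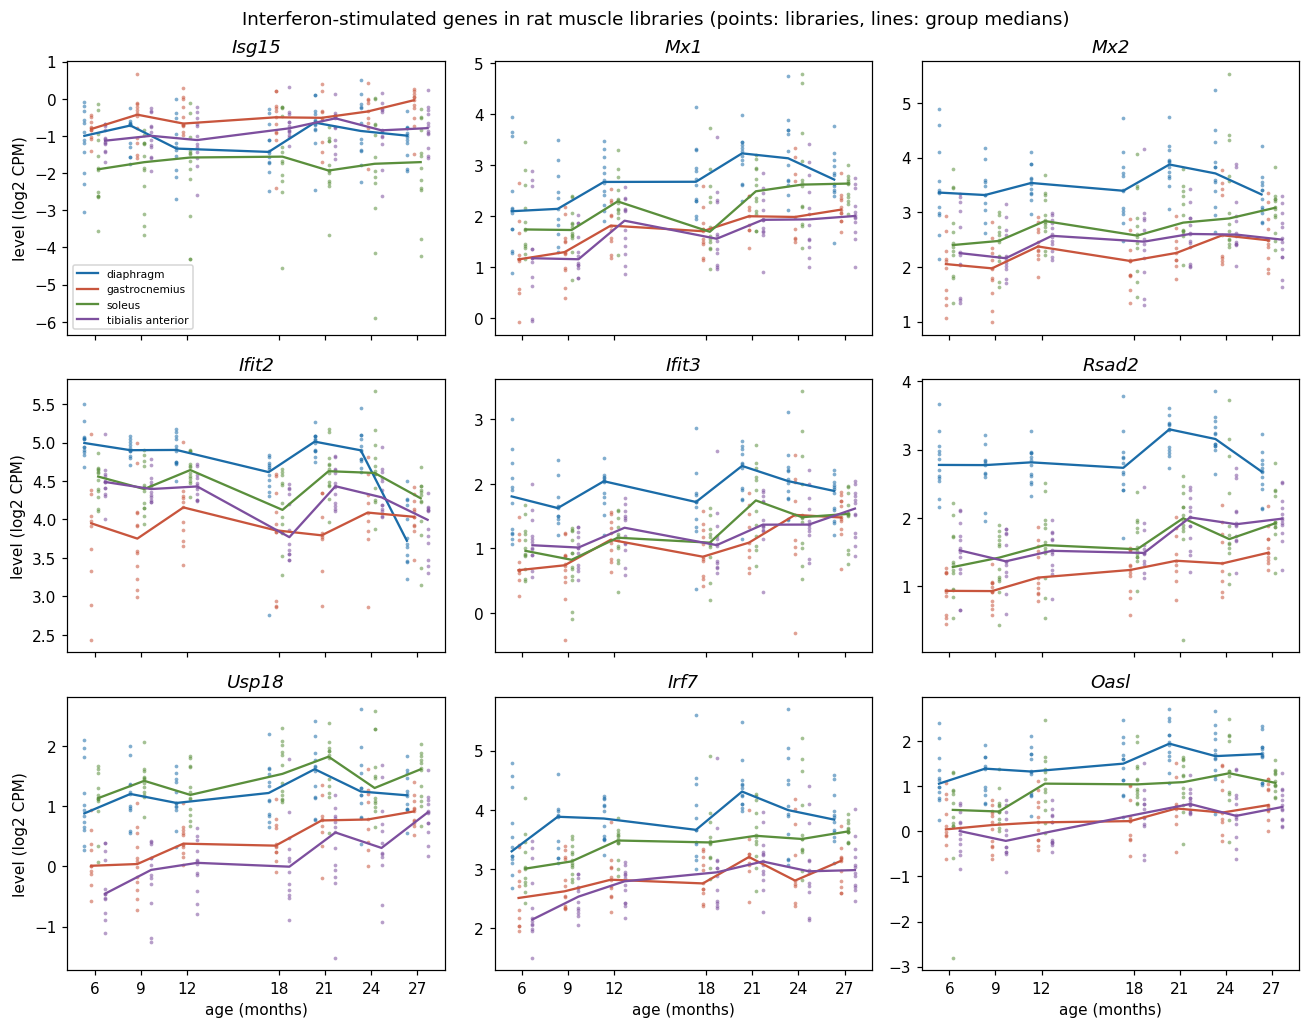
Level of each gene in log2 CPM (vertical axes differ between panels) against age in months; each point is 1 library, colors mark the muscle, which are set slightly apart along the age axis, and lines join the group medians. CPM were scaled within each muscle. The diaphragm line of Ifit2 drops between 24 and 27 months, and lone high points stand above the 18- and 24-month groups of Mx1, Mx2 and Irf7.

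Usp18, the protease that removes ISG15 from proteins and restrains the type I receptor, gave the largest rise of the set at 27 months. In the tibialis anterior it went from 0.453 to 1.3 CPM (median 0.718) at 6 months to 1.11 to 3.02 CPM (median 1.85) at 27 months. Of the 12 old libraries, 10 lay above the highest young one, and the change was 1.19 ± 0.24 (2.28-fold, adjusted p = 8.71e-06). The gastrocnemius went from 0.661 to 1.9 CPM (median 0.995) to 1.42 to 2.64 CPM (median 1.87). All 11 old libraries lay above the young median, and the change was 0.78 ± 0.18 (adjusted p = 0.000112). Soleus (0.39 ± 0.19, adjusted p = 0.0744) and diaphragm (0.16 ± 0.20, adjusted p = 0.523) gave smaller values.

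Isg15, the modifier itself, was called only in the gastrocnemius at 27 months. There it stood at 0.361 to 0.72 CPM (median 0.555) at 6 months and 0.347 to 1.18 CPM (median 0.959) at 27 months. Although 8 of 11 old libraries exceeded every young one, 1 lay under them all, and the change was 0.66 ± 0.26 (adjusted p = 0.0231). At 27 months the values of the tibialis anterior (0.31 ± 0.24), diaphragm (0.04 ± 0.31) and soleus (0.02 ± 0.49) were not called, and the soleus error was the widest of the set.

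Whether the change from 6 to 27 months differed between muscles was tested as an interaction in 1 fit of all libraries. Ifit2 differed in 4 of the 6 muscle pairs. Its change was higher in the gastrocnemius than in the diaphragm by 1.40 ± 0.23 (adjusted p = 2.07e-08) and higher in the soleus than in the diaphragm by 0.73 ± 0.21 (adjusted p = 0.00368). Against the gastrocnemius it was lower, by -0.67 ± 0.23 for the soleus (adjusted p = 0.0118) and by -0.90 ± 0.23 for the tibialis anterior (adjusted p = 0.000903). The Rsad2 change was higher than in the diaphragm in each hindlimb muscle, by 0.80 ± 0.26 (gastrocnemius, adjusted p = 0.00511), 0.81 ± 0.23 (soleus, adjusted p = 0.00304) and 0.68 ± 0.22 (tibialis anterior, adjusted p = 0.00649). For Usp18 the tibialis anterior exceeded the diaphragm by 0.98 ± 0.30 (adjusted p = 0.00411) and the soleus by 0.80 ± 0.30 (adjusted p = 0.0245). Ifit3 differed between gastrocnemius and diaphragm (0.68 ± 0.27, adjusted p = 0.0283). Isg15, Mx1, Mx2, Irf7 and Oasl had no called difference in any pair. For Mx1 the differences ran from -0.36 to 0.52 with errors of 0.36 to 0.44, so a difference of 1.5-fold lay within 2 standard errors of each. The shares of all 12784 genes called in either direction were 21.6% (gastrocnemius against diaphragm), 11.9% (soleus against diaphragm), 20.3% (tibialis anterior against diaphragm), 14.5% (soleus against gastrocnemius), 7.32% (tibialis anterior against gastrocnemius) and 15.8% (tibialis anterior against soleus). The comparisons share libraries, and the fit takes libraries of different muscles as independent, although same-numbered libraries of diaphragm, soleus and tibialis anterior deviated together. With libraries of 1 age and number as a random block over muscles, the counts of called differences were the same in each muscle pair. All gastrocnemius libraries carry description numbers from a range of their own, so that muscle and that number range cannot be told apart. In the diaphragm, soleus and tibialis anterior, all libraries of 12 months carry numbers from a range that those of 18 months do not share. The libraries of 6 and 9 months of the diaphragm and soleus do not share it either. In these comparisons with 12 months, age and number range cannot be told apart. Within the ranges, the numbers of each age of the diaphragm and soleus also lie in blocks that no other age shares. So age and number block cannot be told apart in any comparison of ages in these muscles, also that of 27 with 6 months. The gastrocnemius numbers of 6 and 27 months are interleaved. The part of the number range in the trends over age was not tested.

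At 6 months most of the genes stood highest in the diaphragm. In the fit of all libraries the gastrocnemius was lower than the diaphragm for 7 of 9 genes, against 20.8% of all genes called lower. The soleus was lower than the diaphragm for 4 (13.7% of all genes) and the tibialis anterior for 6 (22.4%). The widest gap was that of Rsad2, with means of 2.63 (diaphragm), 1.68 (tibialis anterior), 1.19 (soleus) and 1.07 (gastrocnemius) log2 CPM. The last 2 did not differ by the call rule (0.12 ± 0.23), and the tibialis anterior exceeded the gastrocnemius by 0.62 ± 0.22 (adjusted p = 0.0108) (6.55% of all genes called higher) but not the soleus by the call rule (0.50 ± 0.20). Usp18 had another order: soleus (0.94) and diaphragm (0.87) did not differ by the call rule, and the soleus exceeded the gastrocnemius by 0.65 ± 0.23 (adjusted p = 0.0081). The tibialis anterior minus soleus difference was -1.07 ± 0.24 (adjusted p = 2.01e-05). In each of these comparisons with the soleus 24.1% of all genes were called in that direction. Isg15 was lowest in the soleus, at a mean of -1.97 log2 CPM, a difference of -1.31 ± 0.36 from the gastrocnemius (adjusted p = 0.000468; 21.3% of all genes), and the tibialis anterior exceeded it by 1.08 ± 0.36 (adjusted p = 0.00376; 18.8% of all genes).

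At 27 months fewer genes were called lower than in the diaphragm. A lost call is not a test of a narrower gap. The interaction above tested that, and it called no difference for Isg15, Mx1, Mx2, Irf7 and Oasl. The diaphragm exceeded the gastrocnemius for 2 genes, Rsad2 and Oasl (15.7% of all genes called lower in the gastrocnemius), and both again in the soleus (15.7%). Of the genes, only Oasl was lower in the tibialis anterior than in the diaphragm (15.1%). Isg15 was then higher in the gastrocnemius (by 1.23 ± 0.28, adjusted p = 4.36e-05) and in the tibialis anterior (by 0.65 ± 0.30, adjusted p = 0.0466) than in the diaphragm (16.6% and 12.3% of all genes called higher). Its soleus mean of -2.01 log2 CPM was the lowest, a difference of -1.96 ± 0.33 from the gastrocnemius (adjusted p = 1.74e-08; 18.5% of all genes), and the tibialis anterior exceeded it by 1.39 ± 0.34 (adjusted p = 0.000142; 15.7% of all genes). Ifit2 showed no called difference between any muscles at 27 months, with means from 3.70 in the diaphragm to 4.19 log2 CPM in the gastrocnemius.

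Over all 7 ages, null, linear and logistic curves were fitted to the log2 CPM of each gene, and a trend was accepted where the Bayesian information criterion (BIC) fell by over 6. The tibialis anterior had 7 genes with a trend, the gastrocnemius 6, the soleus 5 and the diaphragm 3. Of all genes tested, 64.9%, 55.1%, 40.2% and 29.6% had a trend in the same order of muscles, and 33.1%, 28.1%, 19% and 12.2% had a rising one. All trends of the 9 genes were classed as linear rises except those of Ifit2. Its class was a linear fall in the tibialis anterior and a late fall, with its inflection at the last age, in the diaphragm. The class names the preferred curve and not a steady course. In the tibialis anterior the Ifit2 change against 6 months was -0.58 at 18 months, -0.04 at 21 and -0.63 at 27 months. Mx1 and Oasl were classed as linear rises in all 4 muscles, while Isg15 had no trend in any. For Mx1 the BIC fell by 22.6 in the gastrocnemius and by 8.74 to 9.59 in the other muscles. For Oasl it fell by 18.0 in the tibialis anterior and by 7.44 to 9.67 in the others, all under the stricter threshold of 10. Between consecutive ages the calls were Ifit2 and Rsad2 in the diaphragm from 24 to 27 months, where 3.51% of all genes were called lower, and Ifit3 in the soleus from 18 to 21 months (0.61 ± 0.22, adjusted p = 0.0347), where 0.641% were called higher. In the other 22 of 24 consecutive comparisons limma-voom called 0 members, with 20 of 198 tests at an unadjusted p under 0.05. Between 0% and 6.72% of all genes were called in either direction in those comparisons, and no other tool was run on them except for the step from 6 to 9 months given above.

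Libraries of the same muscle and age differed in a shared way. After removal of the age means, the Pearson correlation of log2 CPM over the 36 gene pairs had medians of 0.54 (diaphragm, 83 libraries), 0.50 (gastrocnemius, 73), 0.46 (soleus, 84) and 0.59 (tibialis anterior, 85). The median Spearman rho was 0.57, 0.50, 0.41 and 0.56. A permutation test within age, two-sided, with 100000 resamples and Benjamini-Hochberg adjustment over the pairs of all muscles, put the r of 34, 28, 33 and 36 of the pairs under an adjusted p of 0.05. Without the 2 libraries farthest from the median, the medians of r were 0.60, 0.47, 0.41 and 0.55. The 8 pairs with Ifit2 had median r values of 0.26 (diaphragm), 0.040 (gastrocnemius), 0.45 (soleus) and 0.36 (tibialis anterior), and 6, 1, 7 and 8 of them passed. These medians lay under those of all pairs in each muscle, barely so in the soleus (0.45 against 0.46), where the pairs with Isg15 had the lower median (0.31). The pairs share library and depth, and the paralogs may share reads.

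**Figure D3:**
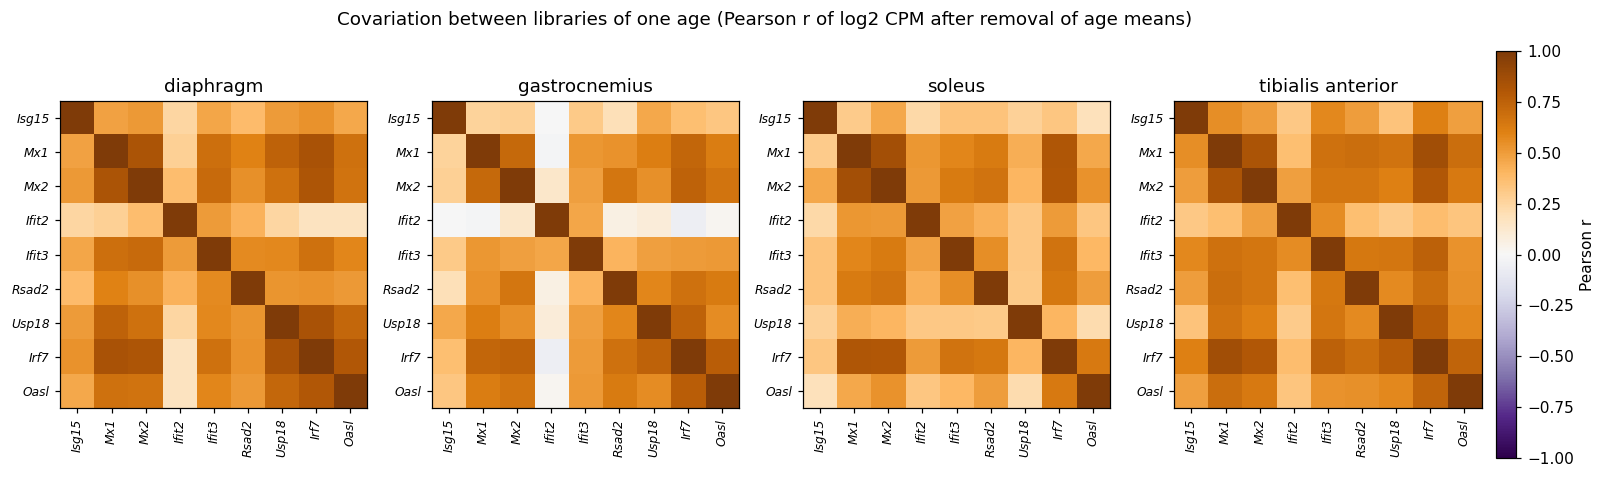
Pearson r between the log2 CPM of each 2 of the 9 genes over the libraries of a muscle after removal of the age means, from -1 (purple) to 1 (brown), 1 panel per muscle. The row and column of Ifit2 are the palest in the diaphragm and the gastrocnemius, where the median r of its pairs is 0.26 and 0.040.

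The widest groups were those of 24 months in the soleus, where the mean log2 CPM over the 9 genes spanned 2.19, and in the diaphragm, where it spanned 1.95. The library farthest above its group was soleus replicate 5 of 24 months, at 1.45 over the group mean, followed by tibialis anterior replicate 10 of 18 months at 1.32 and diaphragm replicate 2 of 24 months at 1.17. The 27-month groups spanned 0.64 to 1.05. Among 10399 other genes, those whose deviations followed the mean of the 9 most closely over all libraries were Rtp4 (r = 0.80), RT1-S3 (0.77), Oas2 (0.77), Oas1b (0.71), Slfn3 (0.71), Ly6e (0.71), Lgals9 (0.70) and Oas1a (0.69). Over the 28 group means, after removal of muscle means, the closest were Rtp4 (0.94), Slfn3 (0.91), Oas2 (0.91), Oasl2 (0.89), Parp9 (0.87), RT1-S3 (0.87), Dtx3l (0.86) and Card6 (0.86). Against the same 28 means, the 9 genes themselves ran from 0.16 (Ifit2) to 0.96 (Rsad2). Each of the 9 is part of the mean it was compared with, so these values cannot be set beside those of the other genes.

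The interferons lay at or near the floor. Of 9 interferon genes listed, 6 were in the files and 0 passed the filter. Over all libraries together Ifng totalled 21 counts, Ifna1 15, Ifna2 11, Ifnb1 8, Ifna4 7 and Ifnk 0, so no change of these genes was detectable at this depth. The wider pathway was described with 127 other symbols, of which 103 were in the files and 94 were tested in each muscle. At 27 months 31 of the 94 were called higher in the gastrocnemius (33%), 20 in the soleus (21.3%), 38 in the tibialis anterior (40.4%) and 2 in the diaphragm (2.13%), beside the all-gene shares of 15.1%, 9.21%, 17.2% and 3.27%. Called lower were 2, 1, 3 and 1, beside all-gene shares of 7.76%, 5.78%, 10.4% and 4.25%. The median change of these genes was 0.32, 0.28, 0.44 and 0.03 in that order.

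Of the receptors and their kinases, 2 of 8 were called higher in the gastrocnemius (Ifnlr1, 0.71, and Il10rb, 0.59) and 2 of 8 in the soleus (Ifnlr1, 1.56, and the kinase gene Jak2, 0.76), and 0 in the other muscles. Among the transcription factors other than Irf7, Irf8, a factor of macrophages and dendritic cells, rose by 1.31 ± 0.16 (gastrocnemius), 0.84 ± 0.22 (soleus) and 1.82 ± 0.27 (tibialis anterior), and Irf5 rose in the last of these (1.02 ± 0.16). Neither was called in the diaphragm. Nucleic acid sensors and adaptors had 5 (gastrocnemius), 2 (soleus), 6 (tibialis anterior) and 1 (diaphragm) of 16 called higher. The sensor gene Zbp1 rose by 1.86 ± 0.41 (tibialis anterior), 1.53 ± 0.47 (gastrocnemius) and 0.96 ± 0.36 (diaphragm). The RNA sensor gene Dhx58 rose in the soleus (1.02 ± 0.22), where the adaptor gene Mavs fell (-1.04 ± 0.10).

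Other antiviral interferon-stimulated genes had 11 (gastrocnemius), 8 (soleus), 14 (tibialis anterior) and 1 (diaphragm) of 37 called higher. Oas2, an oligoadenylate synthetase, rose by 1.79 ± 0.36, 1.18 ± 0.35 and 1.96 ± 0.39 in the 3 hindlimb muscles in that order, and Oas3 by 1.05 ± 0.31 in the diaphragm. Eif2ak2, the RNA-activated kinase PKR, fell in the diaphragm (-0.85 ± 0.13). Targets tied more to interferon gamma were called higher for 10 of 17 (gastrocnemius), 13 of 18 (tibialis anterior), 5 of 17 (soleus) and 0 of 17 (diaphragm). B2m, the light chain of class I antigen presentation, rose by 2.21 ± 0.11 in the gastrocnemius and 2.39 ± 0.14 in the tibialis anterior, and the chemokine gene Cxcl10 by 1.43 ± 0.28 in the gastrocnemius and 1.32 ± 0.35 in the soleus. Ube2l6, the enzyme that conjugates ISG15, rose in the gastrocnemius (0.59 ± 0.15) and the tibialis anterior (0.98 ± 0.15). Of 7 negative regulators other than Usp18, the phosphatase gene Ptpn6 rose in the 3 hindlimb muscles (0.78, 0.72 and 1.12). Socs3 rose in the soleus (0.62 ± 0.25) and the tibialis anterior (0.64 ± 0.29), and Ptpn11 fell in the tibialis anterior (-0.88 ± 0.07).

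**Figure D4:**
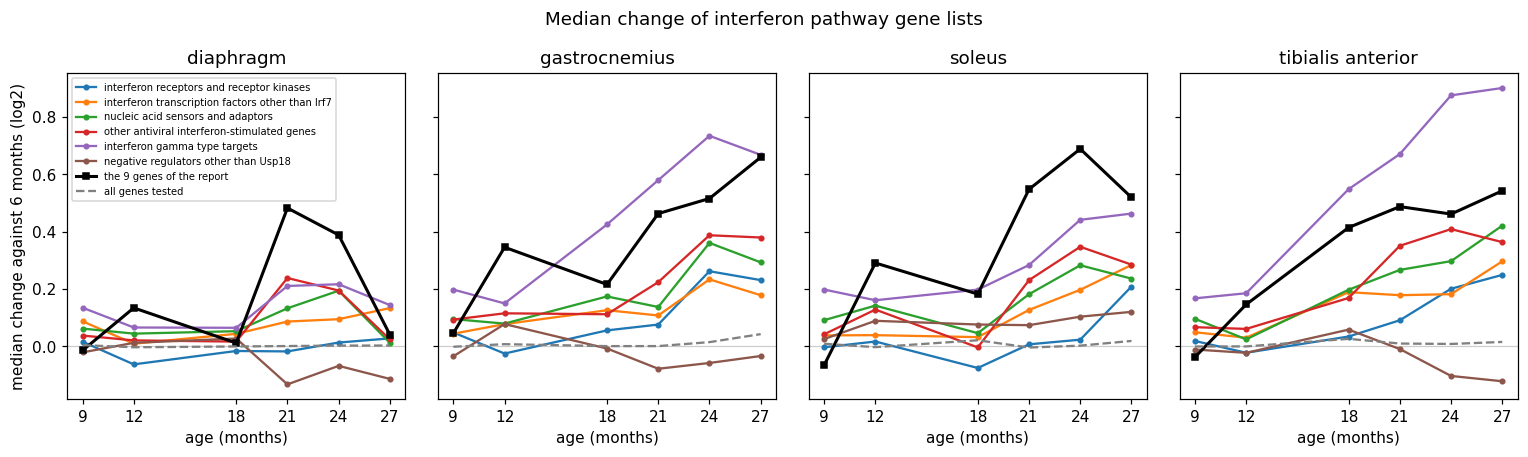
Median log2 change against 6 months (vertical axis) at each later age in months, 1 panel per muscle; colored lines are lists of interferon pathway genes, the black line is the 9 genes of the report and the dashed line all genes tested. The black line of the diaphragm returns from 0.48 at 21 months to 0.04 at 27 months, while that of the gastrocnemius ends at 0.66.

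Markers of other cell types were compared over the same ages, beside the shares of all genes called higher at 27 months of 15.1% (gastrocnemius), 17.2% (tibialis anterior), 9.21% (soleus) and 3.27% (diaphragm). The shares of all genes called lower were 7.76%, 10.4%, 5.78% and 4.25% in the same order. At 27 months 11 of 12 macrophage markers were called higher in the gastrocnemius and 11 in the tibialis anterior, 3 in the soleus and 1 in the diaphragm. Their summed level went from 157 to 241 CPM at 6 months to 271 to 477 CPM at 27 months in the gastrocnemius, and from 71.4 to 118 CPM to 144 to 315 CPM in the tibialis anterior, with no overlap in either. In the soleus it went from 301 to 573 CPM to 490 to 686 CPM and in the diaphragm from 249 to 502 CPM to 393 to 896 CPM. T cell markers were called higher for 6 of 8 tested in the gastrocnemius, 8 of 8 in the tibialis anterior, 3 of 9 in the soleus and 4 of 11 in the diaphragm, and natural killer cell markers for 4 of 4, 5 of 5, 4 of 4 and 1 of 5. The T cell marker Cd5 was called lower in the soleus (-0.73 ± 0.23, adjusted p = 0.0058) and higher in the tibialis anterior (2.44 ± 0.39). The summed natural killer markers of the soleus went from 0.762 to 1.62 CPM to 2.46 to 7.14 CPM. None of the macrophage, T cell or natural killer markers found in the files was at 0 throughout a muscle, and of the 4 or 5 tested markers of plasmacytoid dendritic cells, which include Tlr7 and Tlr9 of the sensor list, 0 to 2 were called higher. Neutrophil markers were called higher for 3 of 4 (diaphragm), 2 of 2 (gastrocnemius), 1 of 4 (soleus) and 2 of 2 (tibialis anterior), and B cell markers, tested in the diaphragm alone, for 1 of 6. Endothelial markers were called higher for 0 of 8 in each muscle and lower for 2 (gastrocnemius), 1 (soleus), 2 (tibialis anterior) and 0 (diaphragm), and the receptor gene Kdr fell in the 3 hindlimb muscles (-1.06, -0.74 and -0.77 in that order). Of 7 fibroblast markers, 3 (diaphragm), 1 (gastrocnemius), 1 (soleus) and 0 (tibialis anterior) were called lower, the collagen gene Col1a1 in each of the first 3 muscles, and Pi16 was called higher in the gastrocnemius and the tibialis anterior. The summed fibre markers had medians of 194191 and 138429 CPM at 6 and 27 months in the gastrocnemius, 197620 and 124435 CPM in the tibialis anterior, 109640 and 85076 CPM in the soleus, and 122274 and 126731 CPM in the diaphragm. Of the 9 fibre markers, 2 (gastrocnemius) and 3 (tibialis anterior) were called lower, and 3 (soleus) and 1 (diaphragm) higher. The part of any of these cells in the changes of the 9 genes was not tested.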

How the data were processed

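The deposited files hold raw counts per gene line, 1 file per library, which the authors made with the ArrayStudio RNA-seq pipeline (version not given in the sources used here) from strand-specific paired reads of ribosome-depleted total RNA, on a rat reference and a RefSeq-based gene model of their own. Lines of 1 symbol were summed (494 of 17315 symbols). Counts were filtered by filterByExpr (minimum count 10, minimum total 15), scaled by TMM (edgeR 4.0.16) and fitted by limma-voom (limma 3.58.1, R 4.3.3) on the groups of age, each muscle alone; muscles were compared in 1 fit of all libraries with 28 groups. Calls needed over 1.5-fold and a Benjamini-Hochberg adjusted p under 0.05; errors are standard errors of the log2 change. The printed CPM use TMM sizes, and log2 CPM a prior count of 0.5. Genes beyond the 9 were named by a rule: per list and muscle at most the 3 called genes with the largest change at 27 months, and the 8 closest genes by correlation. The 9 genes and all lists were chosen with earlier results of these data known. The scripts were tested on simulated counts. Alternatives were edgeR, DESeq2 1.42.0, other scalings, filters and thresholds, sample weights, a replicate block and leaving out libraries. List symbols that the files do not hold were not analysed here.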

Additional observations from a re-analysis of the deposited data

Results flagged for a closer look

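The change from 6 to 27 months differed between muscles for 4 of the 9 genes by the interaction test of limma-voom (Benjamini-Hochberg adjusted p under 0.05 and over 1.5-fold), in 10 comparisons that share libraries. For Ifit2 the change was higher than in the diaphragm by 1.40 in the gastrocnemius and by 0.73 in the soleus, and lower than in the gastrocnemius by differences of -0.67 (soleus) and -0.90 (tibialis anterior). For Rsad2 the change exceeded that of the diaphragm by 0.80 (gastrocnemius), 0.81 (soleus) and 0.68 (tibialis anterior). For Usp18 the tibialis anterior exceeded the diaphragm by 0.98 and the soleus by 0.80. For Ifit3 the gastrocnemius exceeded the diaphragm by 0.68. With Bonferroni adjustment 1 of the 10 was left, Ifit2 between gastrocnemius and diaphragm. What lies behind these differences was not tested.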

How the results depend on the processing

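Ifit2 was called lower in the diaphragm at 27 months under every alternative run and in all 24 fits that left out 1 library. Under Bonferroni adjustment the calls higher were 0 in every muscle at every age except 1 at 27 months in the tibialis anterior (Usp18). A 2-fold threshold left 0 except 1 in the gastrocnemius at 24 months and 1 in the tibialis anterior at 27 months, and took the Ifit2 call of the tibialis anterior to 0. Total-count scaling moved the median of all genes at 27 months to 0.32 in the gastrocnemius, 0.34 in the tibialis anterior and 0.16 in the soleus; it gave 5, 8 and 8 calls higher in the gastrocnemius at 21, 24 and 27 months, 6 and 7 in the tibialis anterior at 24 and 27 months, and 0 lower there at 27 months. At 27 months edgeR and DESeq2 each gave 2 calls higher in the soleus and 2 for the tibialis anterior, at 24 months each gave 5 in the gastrocnemius, and at 21 months edgeR gave 1 in the gastrocnemius and DESeq2 2 in the soleus. Without the low-count filter the soleus had 0 at 21 and 2 at 27 months. Sample quality weights gave 1 in the diaphragm at 27 months, 1 and 5 in the gastrocnemius at 18 and 21 months, and 0 and 2 in the soleus at 21 and 27 months. Without the soleus library of 21 months whose description number lies in the third range the soleus had 4 at that age. The same numbers did not pair the libraries of 27 and 6 months (median r of same-numbered libraries 0.01 to 0.06; 3, 3, 3 and 1 pairs over 0.1; 1, 2, 1 and 0 libraries matched their own number best), and the fit with the replicate block moved 1 count over 1.5 times, the soleus at 21 months from 1 to 4. Between muscles of 1 age, same-numbered libraries had a median r of 0.17 (diaphragm and tibialis anterior), 0.16 (soleus and tibialis anterior) and 0.11 (diaphragm and soleus), with 44 of 83, 46 of 84 and 39 of 83 best matched by their own number, and 0.014 to 0.078 for the 3 pairs with the gastrocnemius. A random block of age and number, chosen after seeing the data, moved 1 of the 18 counts of the comparisons between muscles, levels of soleus against diaphragm at 27 months from 2 to 3, both over all 4 muscles and with the gastrocnemius unpaired; its correlation, shared by all genes, was 0.066 and 0.080. For differences between muscles in the change, Bonferroni adjustment left 1 (gastrocnemius against diaphragm) and 0 in the other 5 comparisons, as did the 2-fold threshold; total-count scaling gave 5 for gastrocnemius against diaphragm and 4 for tibialis anterior against diaphragm, and edgeR 0 for soleus against gastrocnemius. For levels at 6 months, Bonferroni adjustment left 2, 1 and 1 against the diaphragm (gastrocnemius, soleus, tibialis anterior), 0 for soleus against gastrocnemius, 1 for tibialis anterior against gastrocnemius and 0 for tibialis anterior against soleus; the 2-fold threshold left 2, 1, 0, 1 and 0 in the first 5, total-count scaling gave 6 for soleus against gastrocnemius, and edgeR 1 for tibialis anterior against gastrocnemius. For levels at 27 months, Bonferroni adjustment left 1, 0 and 0 against the diaphragm and 0 for tibialis anterior against soleus, the 2-fold threshold 1, 0 and 0 against the diaphragm, and total-count scaling gave 5 for gastrocnemius and 0 for soleus against diaphragm. BIC thresholds of 10 and 6 left trends in 1 gene of the diaphragm, 3 of the soleus and 4 of the tibialis anterior. The values that changed sign were never called: Isg15 in the diaphragm at 27 months was -0.088 by edgeR and -0.083 by DESeq2, Ifit3 there -0.095 by edgeR, -0.091 by DESeq2 and -0.036 with quality weights, and Isg15 in the soleus -0.089 without the filter. Leaving out 1 library at a time gave -0.12 to 0.15, -0.052 to 0.099 and -0.13 to 0.21 for these 3 and -0.18 to 0.016 for Mx2 in the diaphragm. Such fits gave 0 to 1 calls higher in the diaphragm at 27 months, 1 to 5 in the soleus, 2 to 5 higher and 0 to 1 lower in the tibialis anterior, and 5 to 7 in the gastrocnemius; at 24 months, 1 to 3 in the diaphragm, 2 to 6 in the gastrocnemius and 2 to 6 in the soleus. These last fits were chosen after seeing the data. They left out libraries of 24 months only, so the weight of single 6-month libraries in the 24-month calls was not tested. In the soleus at 24 months, replicate 5 took Mx2, Rsad2, Irf7 and Ifit3 with it. The soleus count at 27 months was 1 without replicate 5 of 6 months and 2 without any one of 6 other libraries of 6 months (replicates 0, 3, 4, 6, 7 and 8) or 5 of 27 months (replicates 0, 2, 3, 6 and 8). The tibialis anterior count fell to 2 without replicate 5 of 6 months or replicate 2 of 27 months. At 24 months the diaphragm had 3 calls without replicate 11 and the gastrocnemius 6 without replicate 0, both of 24 months. The diaphragm at 27 months had 1 without replicate 9, 10 or 11 of 6 months or replicate 5 of 27 months. The cause of the moved counts was not tested. Isg15, with a median of 16 counts, is limited most by depth.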

Other observations

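Libraries of different muscles that carry the same replicate number at the same age deviated together in 3 of the 6 muscle pairs. The deviation of the mean log2 CPM of the 9 genes from its group mean correlated between same-numbered libraries of diaphragm and soleus (r = 0.59, rho = 0.54, 83 pairs), diaphragm and tibialis anterior (r = 0.68, rho = 0.60, 83 pairs) and soleus and tibialis anterior (r = 0.61, rho = 0.51, 84 pairs). The two-sided permutation p of each r was 1e-05, the smallest that 100000 resamples within age can give, and the adjusted p over the 6 muscle pairs 2e-05. Without the 2 farthest libraries r was 0.55, 0.64 and 0.60. The 3 pairs with the gastrocnemius (diaphragm, soleus, tibialis anterior) gave r of 0.235, 0.0516 and 0.154 (permutation, adjusted p = 0.0929, 0.75 and 0.299). The labels do not say that a number marks an animal, so this is a pattern of the data and not of the design. This comparison was chosen after seeing the data.

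Replicate 10 of 18 months ranked first of its group in the diaphragm, the soleus and the tibialis anterior, at 1.06, 0.77 and 1.32 above the group mean, and ranked 2 of 11 in the gastrocnemius (0.39). Replicate 2 of 24 months ranked first in the diaphragm (1.17), the gastrocnemius (0.66) and the tibialis anterior (0.96) and 3 of 12 in the soleus (0.95). Replicate 5 of 24 months ranked first in the soleus (1.45), 2 of 12 in the diaphragm (0.53) and in the tibialis anterior (0.86), and 7 of 9 in the gastrocnemius (-0.42). Replicate 9 of 6 months ranked first in the soleus (0.85) and 2 of 12 in the diaphragm (0.84) and the tibialis anterior (0.65).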
